A study of Mus musculus with 11 samples.

Results

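The transcripts of the 3 classical colony-stimulating factors (CSFs) were followed in mouse lymphatic endothelial cells (LECs) cultured alone or together with skin squamous carcinoma cells. The genes were taken by symbol as *Csf1*, *Csf2*, and *Csf3*, and all 3 were among the 191 genes listed for LECs. LEC control (n = 3) is the conditionally immortal line imLEC in single culture. LEC-sorted (n = 3) is the same line after 24 h in co-culture with HaCa4, a mouse skin squamous carcinoma line with oncogenic H-Ras, recovered by FACS with an antibody to CD31 while the cancer cells carried the dye CFSE. All LECs carry the Immortomouse transgene, a thermolabile SV40 large T antigen, and the study used more than 1 LEC clone interchangeably without the labels giving the clone of a library. LECs were kept with IFN-γ, which drives that transgene, and it was withdrawn for functional assays, but the labels do not say which condition these libraries had. The labels do not say whether replicates came from separate cultures, so p-values measure the spread between these libraries, which may be technical. Sorting is described for co-cultured cells, so that co-culture and the sorting procedure cannot be told apart.

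CSFs are secreted cytokines that control the production, survival, and activity of myeloid cells. *Csf1* encodes M-CSF, which acts through the receptor CSF1R on monocytes and macrophages. *Csf2* encodes GM-CSF, which acts on granulocytes, macrophages, and dendritic cells through a receptor with a shared beta chain. *Csf3* encodes G-CSF, the main driver of neutrophil production. Endothelial cells are a known source of all of these factors, and inflammatory cytokines such as IL-1 and TNF raise *Csf2* and *Csf3* mRNA in them. The mRNAs of many inflammatory cytokines carry AU-rich elements in the 3′ untranslated region (UTR), repeats of AUUUA that decay factors recognise.

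*Csf1* lies on chromosome 3 from 107741048 to 107760469, on the minus strand of GRCm38.p6. *Csf2* and *Csf3* both lie on chromosome 11, from 54247270 to 54249899 on the minus strand and from 98700183 to 98703631 on the plus strand. These bounds are from RefSeq, whereas GENCODE M21 starts the protein-coding *Csf3* transcript at 98701263. The 3 genes differed in the AU-rich content of their 3′ UTRs, which are exonic and were read from the GENCODE M21 transcript with the longest 3′ UTR of each gene. The 30 bases with the most ATTTA pentamers of each UTR are shown, and they hold 2 pentamers in *Csf1*, 5 in *Csf2*, and 3 in *Csf3*. Capitals mark the pentamers, which overlap in *Csf2*, and each run is given on the strand of its gene.
Csf1, chr3:107741109-107741138: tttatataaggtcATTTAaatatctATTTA
Csf2, chr11:54247329-54247358: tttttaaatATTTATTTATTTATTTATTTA
Csf3, chr11:98702984-98703013: gatagtttATTTAtctctATTTAatATTTA

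The *Csf2* 3′ UTR held 9 pentamers in 317 bases, or 28.4 per kb. Of 1910 protein-coding genes with a 3′ UTR of 0.8 to 1.25 times that length, 38.4% held at least 1 pentamer and *Csf2* was the 1 gene that held as many as 9. *Csf3* held 6 pentamers in 669 bases, a number reached by 1.86% of 2528 genes of similar UTR length. *Csf1* held 4 pentamers in 2111 bases, a number reached by 49.9% of 3055 genes of similar UTR length. The longer motif TTATTTATT occurred 4 times in *Csf2*, where overlapping copies were counted and each also holds a pentamer. It was in neither *Csf1* nor *Csf3*, and 2.41%, 11.2%, and 3.76% of genes with UTRs as long as those of *Csf2*, *Csf1*, and *Csf3* held it. These matches are a description of the sequence and say nothing of how the transcripts decay in these cells.

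The reference promoters (RefSeq, GRCm38.p6, 250 bases before to 50 after the start site) matched 2 of the 3 genes. *Csf3* was not matched. The NF-κB consensus occurred once in the *Csf1* window, 154 bases before the start site on the strand opposite to the gene, and 8.46% of the 32851 promoter windows held it on either strand. It is shown in capitals below, and whether this match bears on the level of *Csf1* in these cells was not tested.
Csf1, chr3:107760604-107760633, minus strand: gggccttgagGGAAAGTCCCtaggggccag
The AP-1 motif TGANTCA, held by 7.81% of windows, was in neither window, and the same was true of TATAAA, held by 13.6%. The C/EBP motif TTGCNNAA, held by 10.8% of windows, occurred once in the *Csf2* window. That window is set on a start site 232 bases upstream of the one in GENCODE, and it does not cover the promoter next to the GENCODE start.

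The values are TPM, transcript abundances scaled for transcript length and to a fixed total per library, so that levels of different genes can be compared. The 191 listed genes made up 2.51% to 3.85% of the TPM of a LEC library, and TPM keeps no record of depth. The listing holds as many LEC genes as the study called differentially expressed in these same libraries. The calls below are therefore not independent evidence that a gene changed or of its direction. Of the 11 markers of lymphatic endothelium considered, *Pdpn* was the 1 that could be read, at 97.01 to 179.30 TPM in LEC control and 239.08 to 435.92 TPM in LEC-sorted. Of 14 pan-endothelial markers it was *Kdr*, at 136.83 to 171.50 TPM and 88.48 to 116.71 TPM, respectively. The other endothelial markers and all 11 leukocyte markers were not analysed here, and neither were the levels of the 3 CSF genes in HaCa4 cells.

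All 3 CSF genes were higher in each LEC-sorted library than in every LEC control. *Csf1* was abundant in both groups and rose 1.79-fold, whereas *Csf2* and *Csf3* were near 1 TPM in the control and rose 109-fold and 318-fold (ratios of mean TPM). The ratio for *Csf2* was 188 without control replicate 2 and 69.0 without sorted replicate 2, and that for *Csf3* lay between 248 and 439 with any 1 library left out. All 3 passed the thresholds of the study, 0.5 for the log2 fold change in either direction and 0.05 for the adjusted p, against 63.9% of the 191 listed genes that were called higher. The share of listed genes whose libraries did not overlap and were higher in LEC-sorted was also 63.9%. Nothing can be read from the 3 calls against such a share, and the values that follow bear on the size of each change and the level from which it started.

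*Csf1*, the M-CSF gene, was at 496.13, 346.96, and 412.83 TPM in LEC control replicates 1 to 3. In LEC-sorted it was at 781.18, 782.46, and 683.12 TPM. The groups did not overlap, the lowest sorted library lying 1.38-fold above the highest control. Means were 419 ± 74.8 TPM (SD, n = 3) and 749 ± 57.0 TPM (SD, n = 3). The log2 fold change on the log2(TPM + 1) scale was 0.85 (standard error 0.18, 95% confidence interval 0.43 to 1.27, adjusted p = 0.00566 from limma). *Csf1* stood 97th of the 191 genes by log2 fold change, next to their median of 0.87. When libraries were brought to a common median of the listed genes, log2 fold changes shifted by a median of -0.61, and that of *Csf1* was 0.22 (standard error 0.20, adjusted p = 0.343 from limma).

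*Csf2*, the GM-CSF gene, was at 0.41, 1.04, and 0.25 TPM in the controls. In LEC-sorted replicates 1 to 3 it was at 55.37, 107.62, and 22.81 TPM. The lowest sorted library was 21.9-fold above the highest control, and the sorted libraries differed by up to 4.72-fold among themselves. Means were 0.567 ± 0.418 TPM (SD, n = 3) and 61.9 ± 42.8 TPM (SD, n = 3). The log2 fold change was 5.10 (standard error 0.53, 95% confidence interval 3.86 to 6.34, adjusted p = 0.000543 from limma), the 5th highest of the 191 genes on this scale. Scaling to the same median gave 4.69 (adjusted p = 0.000493 from limma).

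*Csf3*, the G-CSF gene, was at 1.43, 0.79, and 0.84 TPM in the controls. In the sorted replicates it was at 427.29, 468.73, and 78.03 TPM. Replicates 1 and 2 were close to each other and replicate 3 lay far below them, though still 54.6-fold above the highest control. Means were 1.02 ± 0.356 TPM (SD, n = 3) and 325 ± 215 TPM (SD, n = 3). The log2 fold change was 6.97 (standard error 0.65, 95% confidence interval 5.46 to 8.49, adjusted p = 0.000543 from limma), the 2nd highest of the 191 genes on this scale. It was 7.81 without LEC-sorted replicate 3, and 6.49 after scaling to the same median. In bulk RNA, a change in the number of cells that carry a transcript and a change in its amount per cell cannot be told apart.

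**Figure D1:**
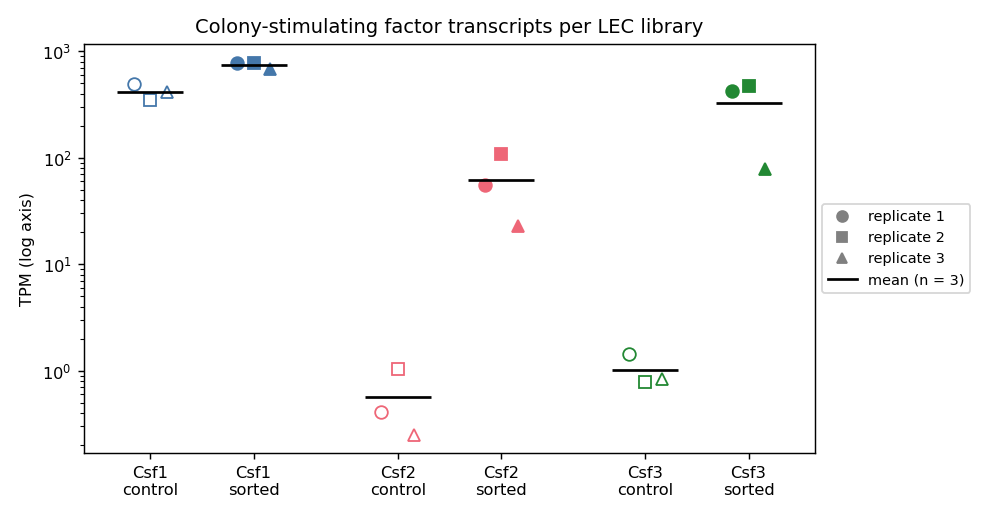
TPM on a log axis of *Csf1*, *Csf2*, and *Csf3* in each LEC control (open symbols) and LEC-sorted library (filled symbols). Symbol shapes give the replicate and the black line is the mean of 3 libraries. The *Csf1* symbols lie between 346.96 and 782.46 TPM throughout, whereas *Csf2* and *Csf3* move from near 1 TPM to between 22.81 and 468.73 TPM.

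On the linear scale of the TPM as deposited, the changes of *Csf1* and *Csf3* were of similar size. Scaling to the same median gave log2 fold changes of 0.22 for *Csf1* and 6.49 for *Csf3*, so this similarity depends on the scaling. *Csf1* gained 330 TPM and *Csf3* gained 324 TPM between the group means, while *Csf2* gained 61.4 TPM. The gain of *Csf3* carries the larger error, since its SD in LEC-sorted was 215 TPM against 57.0 TPM for *Csf1*. Without sorted replicate 3 the gains were 447 TPM for *Csf3* and 363 TPM for *Csf1*, the reverse order. Together the 3 transcripts summed to 497.97, 348.79, and 413.92 TPM in the controls and to 1264, 1359, and 784 TPM in the sorted replicates. The sums did not overlap between the groups (exact two-sided permutation test, p = 0.1, the smallest p that 3 libraries against 3 allow).

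In LEC control the order of the levels was *Csf1* far above the others, with *Csf2* and *Csf3* overlapping between 0.25 and 1.43 TPM. *Csf3* exceeded *Csf2* in controls 1 and 3 but not in control 2. In LEC-sorted, *Csf1* remained highest, followed by *Csf3* and then *Csf2*, in each of the 3 libraries. The ranges of *Csf3* and *Csf2* still overlapped across libraries, because *Csf3* in replicate 3 was below *Csf2* in replicate 2. Within a library, the TPM ratio of *Csf3* to *Csf2* was 7.72, 4.36, and 3.42 in sorted replicates 1 to 3 and 3.49, 0.76, and 3.36 in the controls. These ratios overlapped, as control 1 lay above sorted replicate 3.

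*Csf1* made up at least 99.5% of the summed CSF TPM in every control. In LEC-sorted its share was 61.8%, 57.6%, and 87.1%. The share of *Csf3* was 0.239% ± 0.043 (SD, n = 3) in LEC control and 26.1% ± 14.0 (SD, n = 3) in LEC-sorted, with 33.8%, 34.5%, and 9.95% in replicates 1 to 3 (exact two-sided permutation test, p = 0.1). *Csf2* held 4.38%, 7.92%, and 2.91% in the sorted replicates. These shares do not depend on how a library is scaled.

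**Figure D2:**
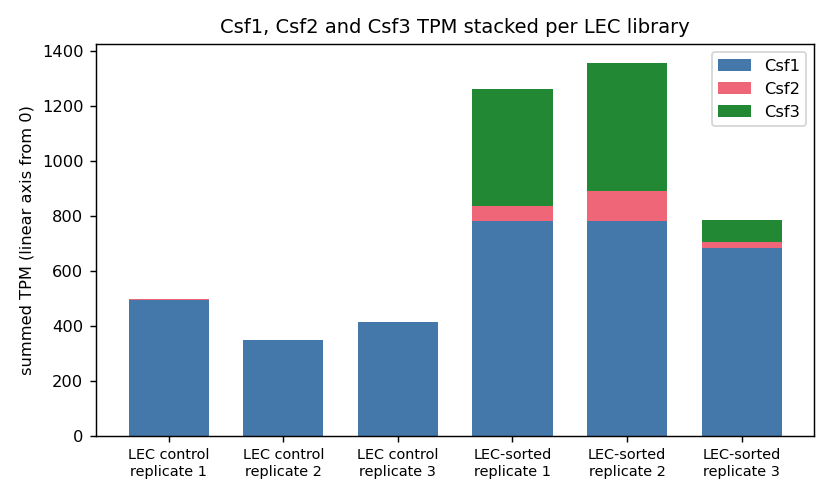
Stacked TPM of *Csf1*, *Csf2*, and *Csf3* in each of the 6 LEC libraries, on a linear axis from 0. Control bars consist almost wholly of *Csf1*, and the sorted bars add a *Csf3* block that is large in replicates 1 and 2 and small in replicate 3.

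Whether the CSF genes changed by different amounts was tested on the log2 ratio of each pair within a library, 3 pairs in all. The log2 change of *Csf3* exceeded that of *Csf1* by 6.12, and that of *Csf2* exceeded *Csf1* by 4.25. The log2 change of *Csf3* exceeded that of *Csf2* by 1.87. For this last pair the log2 ratio, on log2(TPM + 1), was 0.38 ± 0.51 (SD, n = 3) in LEC control and 2.26 ± 0.61 (SD, n = 3) in LEC-sorted. On this scale each pair had an exact two-sided permutation p of 0.1, the smallest possible, and a Benjamini-Hochberg adjusted p of 0.1 over the 3 pairs. The test could not pass 0.05 with these group sizes. For *Csf3* against *Csf2* the separation of the groups rested on the pseudocount, and without one the difference was 1.23 (exact two-sided permutation test, p = 0.2) and the groups overlapped.

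The replicates also varied to different degrees. In LEC-sorted, the SD of log2(TPM + 1) was 0.11 for *Csf1*, 1.10 for *Csf2*, and 1.45 for *Csf3*, against a median of 0.27 over the 191 genes. *Csf3* ranked 4th and *Csf2* 11th highest of the 191 genes in this spread, while *Csf1* ranked 169th. In LEC control the SDs of the 3 genes were 0.26, 0.37, and 0.24. At values near 1 TPM, the added 1 compresses the control SDs of *Csf2* and *Csf3*. Relative to the mean TPM, the SD of *Csf2* was 73.7% in LEC control and 69.1% in LEC-sorted. It was 34.9% and 66.1% for *Csf3*, and 17.9% and 7.61% for *Csf1*. Sorted replicate 3 was the lowest of the 3 for each CSF gene, as it was in 66 of the 122 listed genes called higher. Replicate 1 was the lowest in 44 of these genes and replicate 2 in 12.

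**Figure D3:**
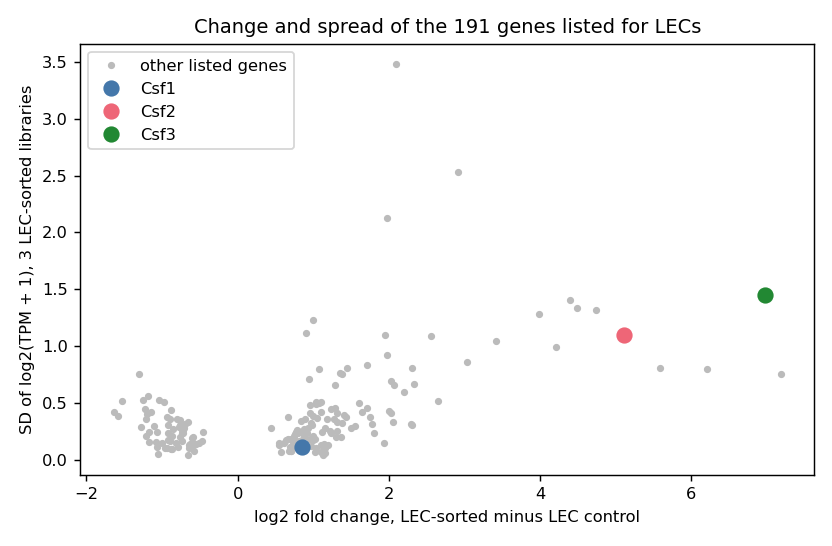
Log2 fold change between LEC-sorted and LEC control (horizontal) against the SD of log2(TPM + 1) among the 3 LEC-sorted libraries (vertical) for the 191 listed genes. *Csf3* and *Csf2* lie far to the right with SDs of 1.45 and 1.10, and *Csf1* lies in the dense group of genes near a log2 fold change of 0.85 with an SD of 0.11.

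*Krt8*, a keratin of epithelial cells, was the 1 keratinocyte marker of 21 that could be read in LECs. It was listed at 0 in all 3 controls and at 0.19, 2.19, and 0.89 TPM in LEC-sorted replicates 1 to 3. The mean of *Krt8* in HaCa4-sorted cells was 221 TPM (n = 3), so that the LEC-sorted values were 0.0859%, 0.99%, and 0.402% of the level in the cancer cells. Sorted replicate 2 was highest for *Krt8* and for each of the 3 CSF genes, though for *Csf1* replicates 1 and 2 were nearly equal (781.18 and 782.46 TPM). Replicate 1 was lowest for *Krt8* and replicate 3 was lowest for the CSF genes. The part of *Krt8*-bearing cells in the CSF values was not tested.

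By pattern, *Csf1* resembled a different set of genes from *Csf2* and *Csf3*. Likeness was measured over the 6 LEC libraries as the root-mean-square difference of log2(TPM + 1) after subtracting the mean of each gene in LEC control. Closest to *Csf1* were *Enah*, a regulator of actin (difference 0.09), *Lpar1*, a receptor for lysophosphatidic acid (0.12), *Slc12a2*, a sodium-potassium-chloride cotransporter (0.14), and *Stip1*, a cochaperone (0.15). These 4 genes had log2 fold changes of 0.72 to 0.88. After scaling to the same median they were at 0.09 to 0.28 and no longer passed. *Enah* was at 8.02 to 11.32 TPM in the controls and 14.95 to 20.98 TPM in LEC-sorted, far below *Csf1* in level but with nearly the same log2 steps. Closest to *Csf2* were the neutrophil-attracting chemokines *Cxcl2* (0.64) and *Cxcl3* (0.70), then *Dcn*, the matrix proteoglycan decorin (0.75), and *Cxcl5* (0.84). Closest to *Csf3* were *Lcn2*, an iron-withholding defence protein (0.76), *Cxcl1* (0.77), *Cxcl5* (1.28), and *Csf2* itself (1.40). Few listed genes rose as far as *Csf3*. *Lcn2* rose further, with a log2 fold change of 7.19. In sorted replicate 3 it was at 323.93 TPM, against 78.03 TPM for *Csf3*.

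*Cxcl2* went from at most 0.52 TPM in the controls to 44.36, 48.50, and 8.58 TPM in sorted replicates 1 to 3. *Cxcl3* went from at most 0.70 TPM to 40.69, 52.38, and 7.84 TPM. As for *Csf2* and *Csf3*, both were highest in sorted replicate 2 and lowest in replicate 3. *Dcn* did not, at 13.56, 88.88, and 30.08 TPM.

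**Figure D4:**
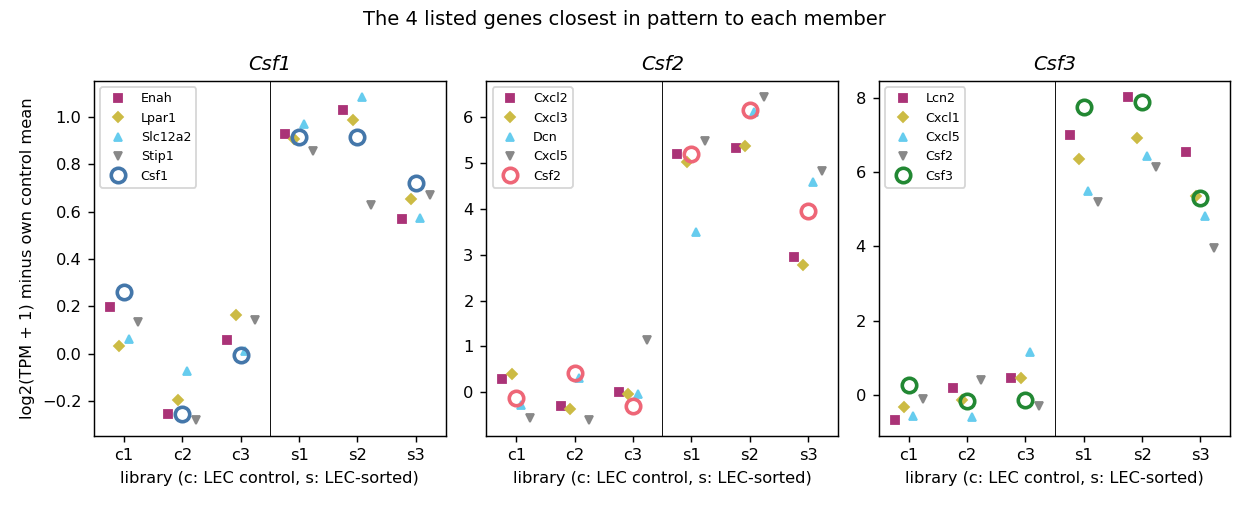
Log2(TPM + 1) minus the gene's own LEC control mean, for each CSF gene (large open circles) and the 4 listed genes closest to it, in control libraries 1 to 3 (c1 to c3) and sorted libraries 1 to 3 (s1 to s3). The *Csf1* panel spans little more than 1 log2 unit, while *Csf2* and *Csf3* rise in parallel with chemokine genes and drop in s3.

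Genes around the CSF pathway were counted from lists of ligands, receptors, upstream signals, transcription factors, decay factors, and other cytokines. None of the 5 CSF receptor genes, and of the 8 CSF and related ligands none beyond the 3 members, could be read in LECs. Of the remaining 5 lists, 26 genes could be read, and 25 were called higher and 1 lower, against 63.9% called higher among all 191 listed genes, which were themselves listed as changed. The median log2 fold change of all 191 listed genes was 0.87. After scaling to the same median, 16 of the 26 were called higher and 1 lower, against 24.1% of all listed genes called higher and 57.6% called in either direction. The counts of each list below stand against the same shares. The lists were chosen with earlier results of these data known, so no enrichment can be read from these counts.

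Upstream of the CSF genes, the interleukin-1 receptor gene *Il1r1* was at 49.88, 25.83, and 35.88 TPM in LEC control and at 85.14, 84.17, and 74.39 TPM in LEC-sorted. This was a log2 fold change of 1.15 with a standard error of 0.24 (adjusted p = 0.00566 from limma). It was the 1 gene of 24 upstream cytokines, receptors, and adaptors that could be read. After scaling to the same median its log2 fold change was 0.53 and no longer passed.

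In the NF-κB family, 6 of 16 genes could be read and all 6 were called higher (against 63.9% of all listed genes), with a median log2 fold change of 1.26. *Nfkbiz*, a nuclear cofactor of NF-κB, had means of 17.8 ± 2.28 and 78.4 ± 17.1 TPM (SD, n = 3 each) in LEC control and LEC-sorted, a log2 fold change of 2.06. *Bcl3*, another nuclear cofactor, rose by a log2 fold change of 2.01. *Nfkb1*, *Nfkb2*, *Nfkbia*, and *Ikbke* had log2 fold changes of 1.02, 0.79, 1.30, and 1.22. Of the 6 genes, 3 still passed after scaling to the same median.

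Among C/EBP, AP-1, and ETS factors, 5 of 15 could be read, with 4 called higher (against 63.9% of all listed genes) and 1 lower, at a median log2 fold change of 0.80. *Cebpd* had means of 44.1 ± 9.78 and 169 ± 17.8 TPM (SD, n = 3 each), and its log2 fold change was 1.94. That of *Cebpb* was 1.27. *Fosl2* and *Ets1* rose by 0.80 and 0.75 on the log2 scale. After scaling to the same median, *Cebpb*, *Fosl2*, and *Ets1* were at 0.65, 0.17, and 0.12 and no longer passed, which left 2 of the 5 genes called. *Fosb*, an early AP-1 gene, fell by 1.64 on the log2 scale (adjusted p = 0.0142 from limma), from 15.29, 6.49, and 3.40 TPM to 1.05, 2.61, and 1.40 TPM.

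Of 10 decay factors, 2 could be read and both were called higher, against 63.9% of all listed genes. *Zc3h12a*, which encodes the ribonuclease Regnase-1, had means of 4.85 ± 0.610 and 18.8 ± 5.62 TPM (SD, n = 3 each), with a log2 fold change of 1.72 (adjusted p = 0.00271 from limma). *Zfp36l1*, a protein that binds AU-rich elements, rose by 0.83 on the log2 scale, and by 0.21 after scaling, when it no longer passed.

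Among 20 other cytokines of myeloid cells, 12 could be read and all 12 were called higher (against 63.9% of all listed genes), with a median log2 fold change of 2.31. *Lif*, at 0.39 after scaling to the same median, was the 1 of these that no longer passed. *Cxcl1*, the neutrophil chemokine with the largest change among them, had a log2 fold change of 6.21. *Ccl2* and *Ccl7*, which attract monocytes, had log2 fold changes of 1.55 and 2.55. *Il6*, *Lif*, and *Il23a* had log2 fold changes of 1.60, 0.97, and 1.45. In size, *Csf2*, at 5.10, stood among *Cxcl1*, *Cxcl5*, *Cxcl2*, *Cxcl3*, and *Ccl20*, whose log2 fold changes lay between 3.99 and 6.21. *Csf3*, at 6.97, stood above these, and *Csf1*, at 0.85, stood below them.

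**Figure D5:**
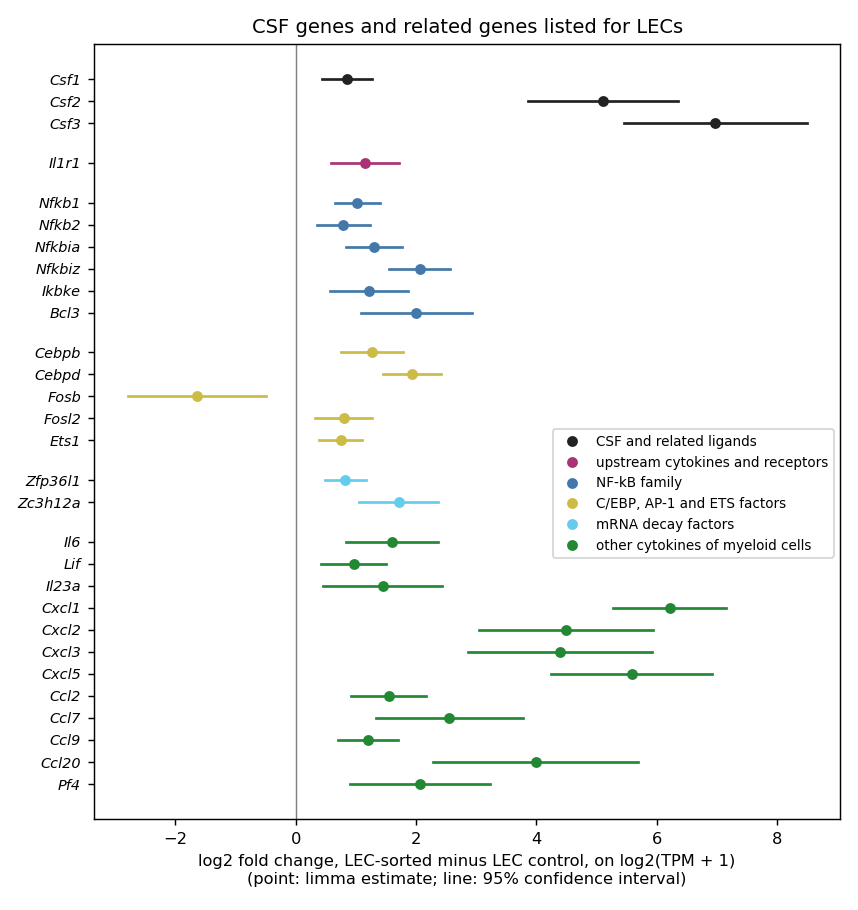
Log2 fold change between LEC-sorted and LEC control on log2(TPM + 1), as limma estimates (points) with 95% confidence intervals (lines), for the CSF genes and the 26 related genes that could be read. *Fosb* is the 1 gene left of 0, and *Csf3* and *Csf2*, at 6.97 and 5.10, lie apart from *Csf1* at 0.85.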

How the data were processed

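Bulk RNA-seq of 11 libraries from 2 mouse cell lines was deposited as TPM values, 1 table per library. Per the labels and methods, the authors used SOAPnuke to filter reads, HISAT2 (2.0.4) to align them on GRCm38.p6, and called differential expression with DESeq2. The tool that gave the TPM values is not given in the sources used here. The deposited TPM are rounded to 2 decimals, and depth is unknown, so no counting error can be given.

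LEC-sorted (n = 3) was compared with LEC control (n = 3) by limma 3.58.1 in R 4.3.3, fitted to log2(TPM + 1) of all 191 listed genes with the trend option. Tests were two-sided, with Benjamini-Hochberg adjustment over these genes and no replicate block. The fit was tested on simulated data. Single values were compared by exact permutation tests over libraries. The CSF genes, gene lists, and tests were chosen with earlier results of these data known. Named genes were the 3 members, the readable list genes, and the 4 closest genes to each member. HaCa4 tables were used for *Krt8*. UTR and promoter sequences came from GENCODE M21 and RefSeq (GRCm38.p6). Tables and plots used Python 3.11.15, pandas 2.3.3, and matplotlib 3.10.9.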

Additional observations from a re-analysis of the deposited data

How the results depend on the processing

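The calls of *Csf2* and *Csf3* and the direction of all 3 CSF genes held under every alternative run: pseudocounts of 0.1 and 5, mean TPM of at least 1 or 10, scaling to the same median, no trend, a replicate block, and leaving out each library. *Csf1* lost its call when scaled to the same median (log2 fold change 0.22). That scaling also left 46 genes called higher in place of 122 and lowered the rise of the summed CSF level to 386 TPM, and the median it uses is that of a list in which most genes rose. A log2 threshold of 1 left 74 genes higher and 21 lower. *Csf1*, at 0.85, is not among these 74. The pseudocount set the size for low genes. *Csf2* changed by more than *Csf1* by 5.60 with 0.1 and 2.52 with 5, and *Csf3* by more than *Csf1* by 4.57 with 5. Without a pseudocount, an alternative chosen after seeing the data, as was leaving out libraries from ratios of mean TPM, *Csf2* against *Csf1* was at 5.91 and *Csf3* against *Csf2* at 1.23. *Csf2* itself was at 6.45 and 3.37, and *Csf3* at 7.85 and 5.42.

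With 1 library left out, 111 to 124 genes were higher and 50 to 62 lower. Log2 fold changes lay between 0.72 and 0.98 for *Csf1*, 4.58 and 5.67 for *Csf2*, and 6.52 and 7.81 for *Csf3*, the highest adjusted p from limma being 0.0213 for *Csf1*. The pair differences lay between 3.76 and 4.76, 5.71 and 6.89, and 1.54 and 2.13, the summed rise between 604 and 891 TPM, and the rise in the *Csf3* share between 21.6 and 33.9 percentage points. LEC-sorted replicate 3 set the upper end for *Csf2* and *Csf3*. Deviations of same-numbered libraries correlated at 0.23, 0.07, and -0.02 over the 191 genes, and those of differently numbered libraries at -0.18 to 0.15. Such correlations over listed genes cannot show whether same-numbered libraries were paired in culture. With a replicate block, 121 genes were higher and 61 lower, and the 3 CSF calls remained. Adjusted p from limma was then 0.00255 for *Csf1*, 1.46e-06 for *Csf2*, and 1.15e-06 for *Csf3*. Over the other named genes, 426 re-estimates kept direction and call, 22 kept direction and lost the call (most of them when scaled, and *Krt8* on leaving out any of 5 libraries), and 0 reversed. Depth is unknown, and the values near 1 TPM in the controls limit the precision of the *Csf2* and *Csf3* folds.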

Other observations

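AU-rich motifs were also counted over the other genes listed for LECs. The motif TTATTTATT was in the 3′ UTR of 22 of 122 genes called higher (18.0%), 3 of 62 called lower (4.84%), and 7.73% of 20829 protein-coding genes. UTR length was not taken into account and the shares were not tested. At least 4 ATTTA pentamers within 30 bases were found in 3 of the 189 listed genes with a UTR (1.59%), against 0.595% of all protein-coding genes. These 3 were *Csf2*, *Cxcl1*, and *Cxcl2*, named after their values were seen, and *Cxcl1* and *Cxcl2* are also among the genes closest in pattern to *Csf3* and *Csf2*. *Lcn2*, *Cxcl3*, *Dcn*, and *Cxcl5* are among these closest genes too and did not reach 4 pentamers, nor did *Csf3* itself, with 3.

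*Dcn*, encoding a proteoglycan typical of fibroblast matrix, was at 0.07, 0.60, and 0.26 TPM in LEC control. Its values in LEC-sorted replicates 1 to 3, 13.56, 88.88, and 30.08 TPM, had the same order of libraries as *Krt8* and another order than *Csf2*, to which it was otherwise close.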
